A study of Mus musculus with 9 samples.

Results

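Klf2, Igfbp4 and Dapl1 are 3 genes whose transcripts are abundant in T cells that have not met antigen, and they are 3 of the 2889 genes in the deposited sample table. They were chosen by gene symbol, because earlier analysis of the same samples had shown Klf2 lower in stromal medium only and Igfbp4 and Dapl1 moving in opposite directions in adipocyte medium. Their levels are therefore given as a description, with no test. The samples were CD3+ T cells, taken by negative selection from the spleens of 3 wild-type C57BL/6 mice and kept at 37°C for 4 h. Each mouse gave 1 sample in adipocyte conditioned medium, 1 in stromal cell conditioned medium and 1 in unconditioned medium (RPMI), so there were 3 samples in each of 3 groups and 9 in all. The labels give no age or sex of the mice and do not say which adipocytes or stromal cells conditioned the media. The cells were a mixed population of T cells, and a level in such bulk RNA cannot tell fewer cells of a type from less RNA per cell.

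Naive T cells circulate between blood and lymphoid organs in a resting state that is held by transcription factors rather than by simple absence of stimulation. Krüppel-like factor 2, the protein of Klf2, is a zinc finger transcription factor that keeps T cells quiescent and drives the genes they need to recirculate, such as S1pr1. FOXO1 promotes its transcription, and signals through the T cell receptor and phosphoinositide 3-kinase lower it. Igfbp4 encodes a secreted protein that binds insulin-like growth factors and limits their access to the receptor, and in mouse its transcript is used as a marker of naive T cells. Dapl1 encodes death associated protein-like 1, a small protein whose transcript marks naive T cells, CD8 cells above all, and its role in them is less well understood.

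The 250 bases before the annotated start of each gene are shown because the 3 genes share a reputation as naive cell markers but moved apart from each other. They are RefSeq sequences of build GRCm38.p6, matched by symbol for all 3 genes, and lie on the plus strand at chr8:72318812-72319061 for Klf2, chr11:99040994-99041243 for Igfbp4 and chr2:59484403-59484652 for Dapl1. Capitals mark matches, on either strand, to a FOXO core (GTAAACA), a MEF2 core (CTA followed, after any bases NNNN, by TAG), a GC box (GGGCGG), an AP-1 core (TGANTCA), a STAT core (TTCNNNGAA) or a TATA box (TATAAA), and no 2 matches overlapped.
Klf2: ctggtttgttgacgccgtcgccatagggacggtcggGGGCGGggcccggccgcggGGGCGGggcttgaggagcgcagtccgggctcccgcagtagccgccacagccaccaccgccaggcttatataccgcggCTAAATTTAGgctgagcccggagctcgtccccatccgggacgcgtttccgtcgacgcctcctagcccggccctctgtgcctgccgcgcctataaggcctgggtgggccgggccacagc
Igfbp4: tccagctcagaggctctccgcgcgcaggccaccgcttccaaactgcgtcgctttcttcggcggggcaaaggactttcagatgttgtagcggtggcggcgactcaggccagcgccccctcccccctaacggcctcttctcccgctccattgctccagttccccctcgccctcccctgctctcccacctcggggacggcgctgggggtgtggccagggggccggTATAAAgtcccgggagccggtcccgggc
Dapl1: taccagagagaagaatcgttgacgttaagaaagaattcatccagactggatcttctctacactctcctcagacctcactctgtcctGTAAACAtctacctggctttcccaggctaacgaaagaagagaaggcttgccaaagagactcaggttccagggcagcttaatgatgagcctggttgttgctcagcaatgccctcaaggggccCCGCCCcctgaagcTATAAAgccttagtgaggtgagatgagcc

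No searched motif was found in all 3 windows. The Klf2 window held 1 MEF2 core, CTAAATTTAG at positions -118 to -109 from the start, and 2 GC boxes. The Dapl1 window held 1 FOXO core at -164 to -158, 1 GC box on the minus strand at -43 to -38 and a TATA box at -29 to -24. The Igfbp4 window held a TATA box alone, at -28 to -23. Of 32851 promoter windows of this length, 3.17% held the FOXO core, 3.20% the MEF2 core, 32.7% a GC box and 12.4% the TATA box. The letters of the AP-1 core, found in 6.75% of windows, and of the STAT core, found in 7.02%, were in none of the 3. Bases G and C made up 71.2% of the Klf2 window, 69.2% of the Igfbp4 window and 50% of the Dapl1 window, beside a median of 52.4% over all windows. A match of letters is a description and does not show that a factor binds there.

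Klf2 was lower in stromal medium, in every mouse. Klf2 (ENSMUSG00000055148) had 27588, 25555 and 30596 normalized counts in stromal medium, against 52001, 54727 and 59129 in unconditioned medium, for mice 1, 2 and 3. The 2 ranges lay far apart, and the mice kept 53.1%, 46.7% and 51.7% of their own unconditioned levels. The means were 27913 ± 2536 in stromal medium and 55286 ± 3597 in unconditioned medium (SD, n = 3 each), a log2 difference of -0.99 (SE 0.13). In adipocyte medium Klf2 had 52412, 45192 and 63858 normalized counts, with a mean of 53821 ± 9412 (SD, n = 3). These values spanned the whole unconditioned range, mouse 2 below it and mouse 3 above it, and the log2 difference was -0.05 (SE 0.13). Adipocyte medium thus stood above stromal medium, by 0.94 on the log2 scale (SE 0.13), with no overlap of the samples. The order of the means was unconditioned, adipocyte and stromal medium, and the first 2 did not differ beyond the spread of their samples on the deposited scale. Rescaling by the median of ratios over the listed genes turned that order, with 76012, 62005 and 90486 in adipocyte medium against 39462, 40164 and 43620 in unconditioned medium. The rescaled log2 difference was 0.87. That rescaling takes the median listed gene as unchanged, although the authors had selected these genes as changed. Rescaled values here therefore show only how far a result rests on the scaling.

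Igfbp4 was higher in adipocyte medium. Igfbp4 (ENSMUSG00000017493) had 4691, 3901 and 5705 normalized counts in adipocyte medium, against 1194, 1297 and 1456 in unconditioned medium, for mice 1, 2 and 3. The lowest adipocyte sample was far above the highest unconditioned one, and the ratio within a mouse was 3.93, 3.01 and 3.92. The means were 4766 ± 904 in adipocyte medium and 1316 ± 132 in unconditioned medium (SD, n = 3 each), a log2 difference of 1.84 (SE 0.14). Stromal medium gave 1497, 1861 and 1810 normalized counts, with a mean of 1723 ± 197 (SD, n = 3). Each of these was above all unconditioned values, the nearest pair being 1497 in stromal medium and 1456 in unconditioned medium, and each mouse was higher by 1.25, 1.44 and 1.24 times. The stromal log2 difference was 0.39 (SE 0.14), and adipocyte medium was above stromal medium by 1.46 (SE 0.14) with no overlap. The order of the levels was adipocyte, stromal and unconditioned medium.

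Dapl1 was lower in both conditioned media. Dapl1 (ENSMUSG00000026989) had 529, 488 and 710 normalized counts in adipocyte medium and 563, 718 and 760 in stromal medium, against 2011, 2833 and 2525 in unconditioned medium, for mice 1, 2 and 3. All 6 conditioned samples lay below all 3 unconditioned ones. A mouse kept 26.3%, 17.2% and 28.1% of its unconditioned level in adipocyte medium and 28%, 25.4% and 30.1% in stromal medium. The means were 576 ± 118 in adipocyte medium, 680 ± 104 in stromal medium and 2456 ± 415 in unconditioned medium (SD, n = 3 each). The log2 difference was -2.10 (SE 0.17) in adipocyte and -1.85 (SE 0.17) in stromal medium. Between adipocyte and stromal medium the samples overlapped and the log2 difference was -0.25 (SE 0.17), so these neighbours in the order did not differ beyond the spread of their samples. Within mice 1, 2 and 3 the adipocyte sample was lower by small amounts, at -0.09, -0.56 and -0.10, and rescaling turned the log2 difference to 0.32.

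**Figure D1:**
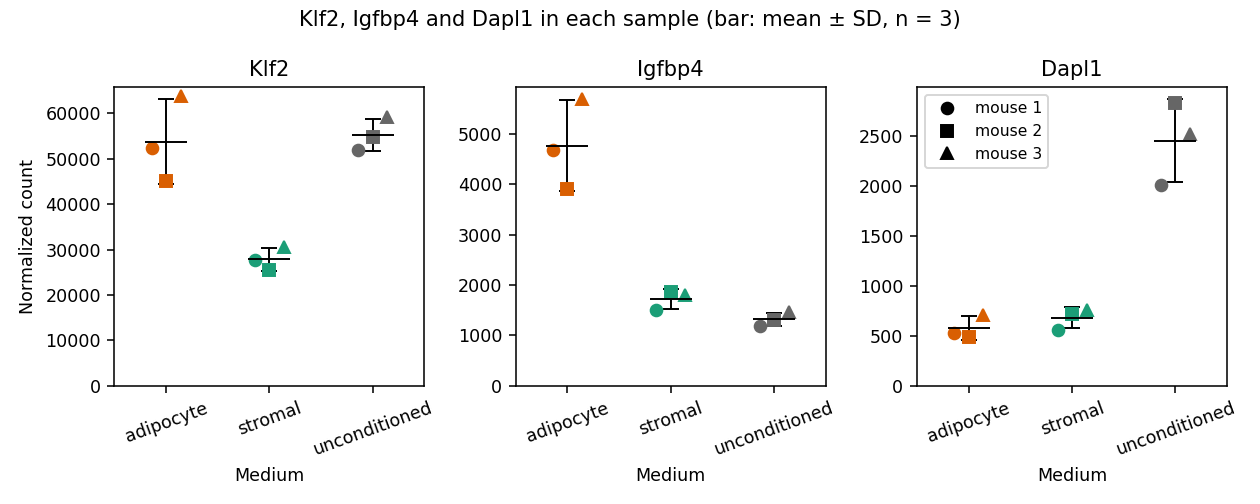
Normalized count (vertical axis, starting at 0) of Klf2, Igfbp4 and Dapl1 in each sample by medium (horizontal axis); points are samples, shapes are mice, and bars are the mean ± SD of 3 samples. Klf2 is low in stromal medium alone, Igfbp4 is high in adipocyte medium, and Dapl1 is low in both conditioned media.

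The 3 genes stood at different places among all genes tested. Of 2868 genes, Dapl1 had the 28th lowest log2 difference in stromal medium and the 289th lowest in adipocyte medium. Klf2 was the 379th lowest in stromal medium, and 64.6% of genes were lower than Klf2 in adipocyte medium. Igfbp4 was the 238th highest in adipocyte medium. These ranks are among genes the authors had already selected as changed, and the background of change is high. At a threshold of 0.05 on the adjusted p, limma called 97.2% of genes between adipocyte and unconditioned medium, 33.8% of all genes being higher and 63.4% lower. Between stromal and unconditioned medium it called 57.7%, with 21.1% higher and 36.6% lower, and between adipocyte and stromal medium 91%, with 33.8% higher and 57.2% lower. The samples of adipocyte and unconditioned medium did not overlap in 97% of genes (33.6% higher, 63.4% lower), those of stromal and unconditioned medium in 69.4% (25.1% higher, 44.2% lower), and those of adipocyte and stromal medium in 89.6% (33.4% higher, 56.2% lower). Nothing is read from the members' own separation beside these shares, since the genes were chosen on these contrasts.

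The authors' deposited table for stromal against unconditioned medium lists Klf2 at a log2 fold change of -0.99 (SE 0.08) and Dapl1 at -1.85 (SE 0.13), and does not list Igfbp4. Their deposited table for adipocyte against unconditioned medium lists Igfbp4 at 1.85 (SE 0.11) and Dapl1 at -2.10 (SE 0.13), and does not list Klf2. Those tables hold only genes past the authors' test of a change beyond 1.5-fold. In the authors' clusters Klf2 and Dapl1 are in cluster 3, which has 226 genes, and Igfbp4 is in cluster 1, which has 920.

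The levels rest on many reads. Klf2 had 25552 to 66704 recovered reads in a sample, Igfbp4 836 to 5839 and Dapl1 368 to 3259. Per kilobase of exon in the GENCODE M21 annotation, the mean level of Klf2 in unconditioned medium was 29933 normalized counts, that of Dapl1 3617 and that of Igfbp4 298. In adipocyte medium the per-kilobase level of Igfbp4, 1079, was above that of Dapl1, 848, whereas in stromal medium Igfbp4 at 390 was below Dapl1 at 1002 as in unconditioned medium. Lengths are approximate, since the sources do not name the annotation used for counting. In GENCODE M21 no other gene shares exon bases with any of the 3, on either strand.

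Within adipocyte medium the 3 genes ranked the 3 samples alike, which they did not do in stromal or unconditioned medium. The mouse 2 sample was the lowest of the adipocyte samples for Klf2, Igfbp4 and Dapl1, and the mouse 3 sample was the highest for all 3. The normalized counts summed over the listed genes were also lowest in the mouse 2 adipocyte sample, at 10705179 against 11999889 and 11662031 for mice 1 and 3. The part of this library in the spread of the 3 genes was not tested. Without it the log2 difference from unconditioned medium was 0.07 for Klf2, 1.98 for Igfbp4 and -1.99 for Dapl1.

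Other genes of resting and naive T cells went both ways, in counts that changed with the scaling. A list of 50 such genes had 20 in the tested table, the 3 described here among them. Of the 17 others, 13 were lower, 3 higher and 1 not called in adipocyte medium (median log2 difference -0.95, beside -1.03 over all genes tested), and 10 were lower, 3 higher and 4 not called in stromal medium (median -0.38, beside -0.17 over all genes). Over all genes tested 63.4% were lower and 33.8% higher in adipocyte medium, and 36.6% lower and 21.1% higher in stromal medium. On a scale set by the median of ratios over the listed genes, these became 5 higher and 4 lower in adipocyte medium and 5 higher and 8 lower in stromal medium. That scale moved the median gene by 0.93 and 0.36 on the log2 scale, and it gave 1078 genes higher and 1047 lower over the table in adipocyte medium and 1129 higher and 561 lower in stromal medium, in place of 969 and 1818 and of 606 and 1049. The authors had listed 16 of the 20 as changed in adipocyte medium and 7 in stromal medium, so the counts repeat that selection in part.

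Tspan32, a tetraspanin gene of blood cells, had log2 differences of -1.97 in adipocyte medium (limma adjusted p = 1.33e-08) and -1.21 in stromal medium (limma adjusted p = 2.36e-06), and was called lower in both after rescaling, at -1.05 and -0.85. Cd55, which encodes a regulator of complement on the cell surface, had 1474, 1869 and 1767 normalized counts in stromal medium, against 4968, 5766 and 5877 in unconditioned medium (log2 difference -1.70, limma adjusted p = 1.11e-06). In adipocyte medium Cd55 was at -0.55 on the deposited scale and at 0.38 after rescaling, so its direction there rests on the scaling.

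Genes of the list also rose. Gramd3 and the antiproliferative gene Tob1 rose in adipocyte medium by 1.15 and 0.96 on the log2 scale. Bcl2, encoding an inhibitor of cell death, rose in stromal medium by 1.47 (SE 0.17, limma adjusted p = 1.58e-05), with 6465, 7254 and 11261 normalized counts against 2727, 2761 and 3322 in unconditioned medium. Slfn1, a Schlafen gene of resting lymphocytes, was at -1.54 in adipocyte medium and at 0.65 in stromal medium, past the threshold in both. The list thus held the pattern of Dapl1, lower in both media on the deposited scale, in Tspan32, Atp1b1, Nsg2 and Txnip among other genes. Gramd3 and Tob1, among others, shared the adipocyte rise of Igfbp4. In stromal medium, where Igfbp4 was at 0.39, Gramd3 was at -0.23 and Tob1, not called, at 0.16 on the deposited scale. After rescaling the adipocyte difference of Txnip was -0.03 and that of Nsg2 was -0.09.

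**Figure D2:**
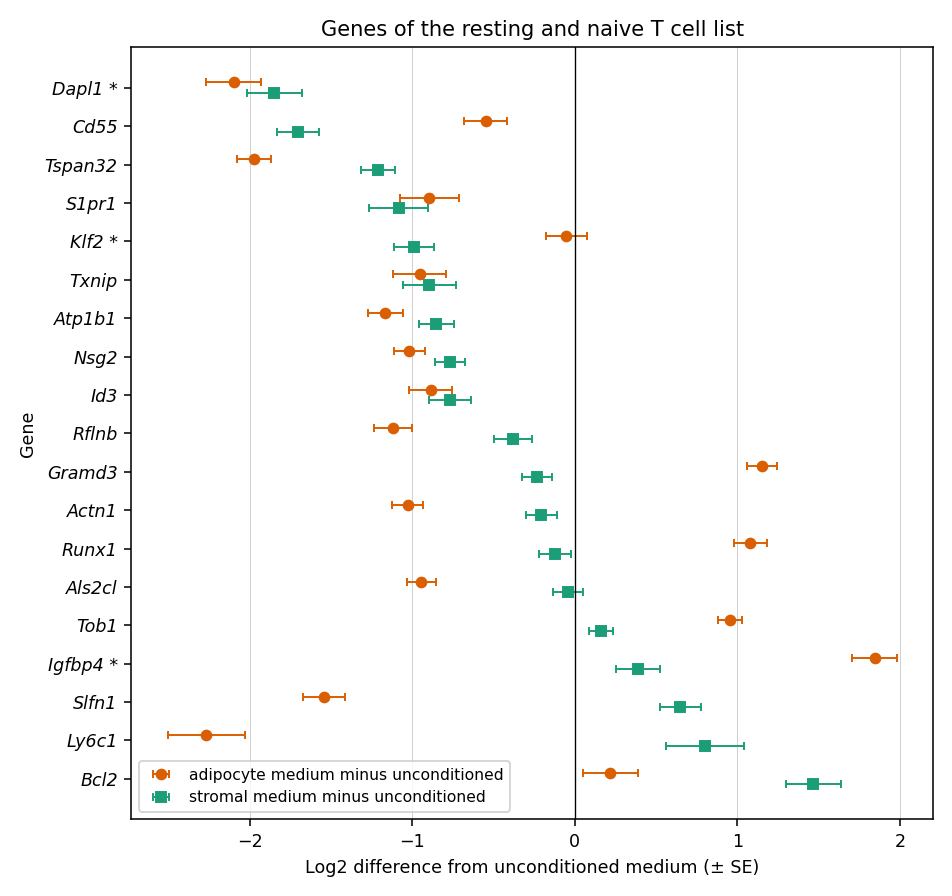
Log2 difference from unconditioned medium (horizontal axis, ± SE) of tested genes of the resting and naive T cell list (vertical axis), in adipocyte medium (circles) and stromal medium (squares); asterisks mark Klf2, Igfbp4 and Dapl1. Dapl1 is the lowest of those plotted in stromal medium at -1.85, Igfbp4 is the highest of them in adipocyte medium at 1.84, and Klf2 is at -0.05 and -0.99.

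Among genes reported to depend on KLF2 in lymphocytes or other cells, S1pr1, Itgb7, S1pr4 and Cdkn1a are described here. S1pr1, the receptor with which T cells leave lymphoid organs, had 42413, 34713 and 66509 normalized counts in adipocyte medium and 38447, 39709 and 43227 in stromal medium, against 83505, 86949 and 86469 in unconditioned medium. Its stromal log2 difference was -1.08 (SE 0.18, limma adjusted p = 2.64e-04). The adipocyte value of S1pr1 was -0.89 (SE 0.18, limma adjusted p = 3.86e-04) on the deposited scale and 0.03 after rescaling. Itgb7, for the beta 7 integrin chain, had 8080, 8045 and 9625 normalized counts in adipocyte medium and 9223, 9100 and 9958 in stromal medium, against 22036, 24664 and 24984 in unconditioned medium, and was called lower in both after rescaling, at -0.55 in adipocyte and -0.98 in stromal medium. S1pr4, another receptor of sphingosine 1-phosphate, was at -1.01 in stromal medium and at -0.49 in adipocyte medium, where rescaling gave 0.44. The cell cycle inhibitor gene Cdkn1a rose in both, by 2.03 in adipocyte and 1.67 in stromal medium.

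Other tested members of the KLF family did not share the levels of Klf2. Of 18 family genes 7 were tested. All 6 others were higher in adipocyte medium on the deposited scale (median log2 difference 1.42) and after rescaling (median 2.34). Over all genes, 33.8% were called higher there on the deposited scale. The authors had listed all 6, and not Klf2, as changed in adipocyte medium, so that all 6 were called repeats that selection. Klf6, an immediate early gene, had 72185, 55991 and 76849 normalized counts in adipocyte medium, against 26301, 26692 and 26189 in unconditioned medium. In stromal medium 3 of the 6 were lower, 1 was higher and 2 were not called, beside 36.6% of all genes lower and 21.1% higher. Rescaling left 1 lower and 1 higher, on a scale that called more of all genes higher than lower there. Klf11 had 570, 567 and 550 normalized counts in stromal medium, against 1144, 1148 and 1278 in unconditioned medium, a log2 difference of -1.08 (SE 0.08, limma adjusted p = 1.02e-06) close in size to that of Klf2. In adipocyte medium Klf11 had 6019, 5685 and 5920 normalized counts and was above unconditioned medium by 2.30, unlike Klf2. Klf4, another quiescence factor, rose in both media, by 2.36 and 1.58. Klf16 was at -0.37 in stromal medium (rescaled -0.01) and Klf10 at -0.35 (rescaled 0.01). The Klf10 call ended without stromal replicate 2 (-0.23) or 3 (-0.35) and without unconditioned replicate 1 (-0.37) or 3 (-0.26).

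**Figure D3:**
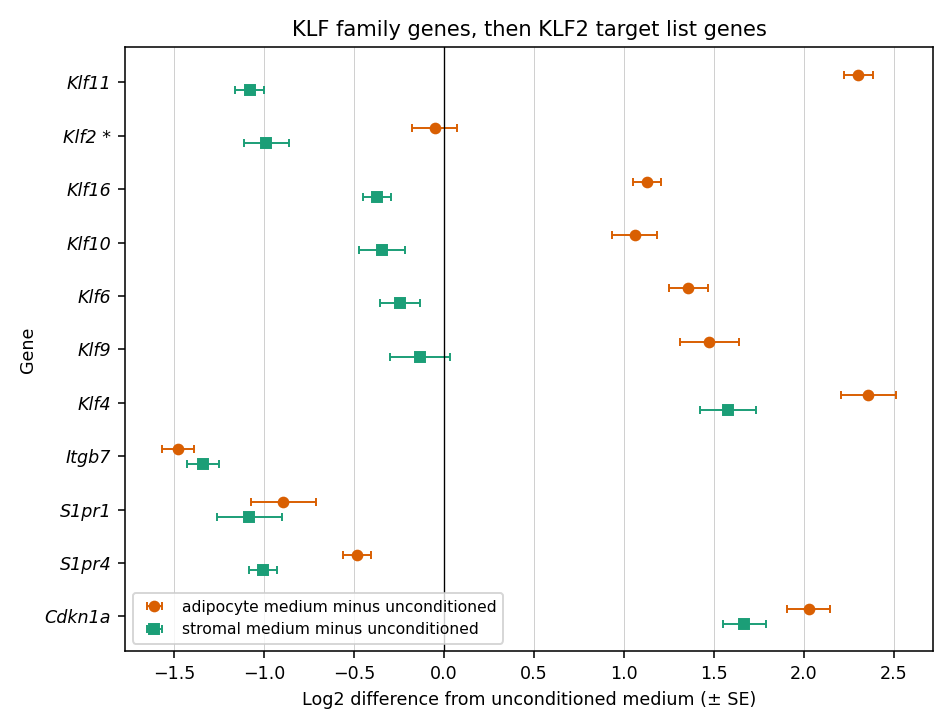
Log2 difference from unconditioned medium (horizontal axis, ± SE) of the 7 tested KLF family genes and, under them, 4 KLF2 target genes (vertical axis), in adipocyte medium (circles) and stromal medium (squares); the asterisk marks Klf2. Klf2 and Klf11 are near -1 in stromal medium and part in adipocyte medium, at -0.05 and 2.30.

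FOXO1 target genes, which include Klf2 and S1pr1, went both ways. Of 22 listed genes 11 were tested. Of the 10 besides Klf2, 6 were higher and 4 lower in adipocyte medium, and 2 were higher and 5 lower in stromal medium. The shares over all genes were 33.8% higher and 63.4% lower in adipocyte medium and 21.1% higher and 36.6% lower in stromal medium. Rescaling gave 6 higher and 1 lower in adipocyte medium and 4 higher and 3 lower in stromal medium. Over all genes, that scale called similar numbers higher and lower in adipocyte medium and more higher than lower in stromal medium. The authors had listed 9 of the 11 tested genes, all but Klf2 and S1pr1, as changed in adipocyte medium, so the calls there repeat that selection in part. Bcl6, a repressor gene of follicular helper cells, rose by 1.94 in adipocyte medium and Sesn1, a stress gene restraining growth signals, was at -1.47 there. The 2 genes called higher in stromal medium on the deposited scale were Bcl6 at 0.46 and Gadd45a at 0.37. The Bcl6 call ended when stromal replicate 1 (0.36), stromal replicate 2 (0.30) or any unconditioned replicate (0.45 to 0.47) was left out, and that of Gadd45a without stromal replicate 2 (0.30) or unconditioned replicate 2 (0.35) or 3 (0.34).

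Of 14 listed regulators that act on Klf2 transcription or lie upstream of it, Mef2a and Nfkb1 were tested, and both were called higher in adipocyte medium, at 0.85 and 1.27. Over all genes, 33.8% were called higher there. The authors had listed both as changed in adipocyte medium, so that both were called repeats that selection. In stromal medium Nfkb1 was called at 0.50 and Mef2a, at -0.07, was not, beside 21.1% of all genes called higher. After rescaling Nfkb1 and Mef2a were both called higher in stromal medium, at 0.86 and 0.29, where that scale called more genes higher than lower.

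Little of the insulin-like growth factor axis around Igfbp4 could be followed. Of 21 genes of ligands, receptors, binding proteins and their regulators 3 were tested, and Igfbp4 was the single binding protein gene among them. Irs2, the adaptor through which insulin and IGF1 receptors signal, had 12314, 11269 and 12012 normalized counts in adipocyte medium and 3744, 3394 and 3531 in stromal medium, against 5502, 5035 and 4915 in unconditioned medium. Irs2 thus rose in adipocyte medium (log2 difference 1.20, SE 0.08, limma adjusted p = 3.17e-08). It was at -0.53 in stromal medium (SE 0.08, limma adjusted p = 7.87e-05), and rescaling ended that stromal call at -0.18. Stc1, whose product can inhibit the protease that cleaves IGFBP4, was near the limit of detection, with 96.4, 29.7 and 12.7 normalized counts in adipocyte medium, 26.7, 21.8 and 28.7 in stromal medium and 7.14, 0 and 3.55 in unconditioned medium.

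The genes nearest in pattern to each of the 3 were found by a distance over 6 values, the log2 difference of each conditioned sample from the unconditioned sample of the same mouse. The distance is the root mean square over those 6, among 2445 named genes with a mean of at least 100 normalized counts. Nearest to Klf2 were Ppip5k1 (0.13), Ank (0.15), Arhgap4 (0.15), Carmil2 (0.16) and Afap1 (0.17), with mean log2 differences from -0.23 to -0.04 in adipocyte medium and from -1.13 to -0.97 in stromal medium. Ppip5k1 encodes an inositol pyrophosphate kinase, Ank a transporter of pyrophosphate, and Arhgap4, Carmil2 and Afap1 encode proteins that act on the actin cytoskeleton or its regulators. Nearest to Igfbp4 were Coq10b (0.12), Mafg (0.13), Gna13 (0.14), Lilr4b (0.14) and Tamalin (0.15). Dapl1 had looser neighbours, Slc35d2 (0.27), Izumo4 (0.29), Mettl27 (0.30), Ampd3 (0.31) and Cacna2d4 (0.32). The mouse 2 adipocyte difference of Dapl1, -2.54, was lower than that of any of those 5. The 3 genes themselves were far apart, at 1.57 between Dapl1 and Klf2, 1.66 between Igfbp4 and Klf2 and 3.21 between Dapl1 and Igfbp4. Distances within a mouse share its unconditioned sample, and they say nothing of shared control.

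**Figure D4:**
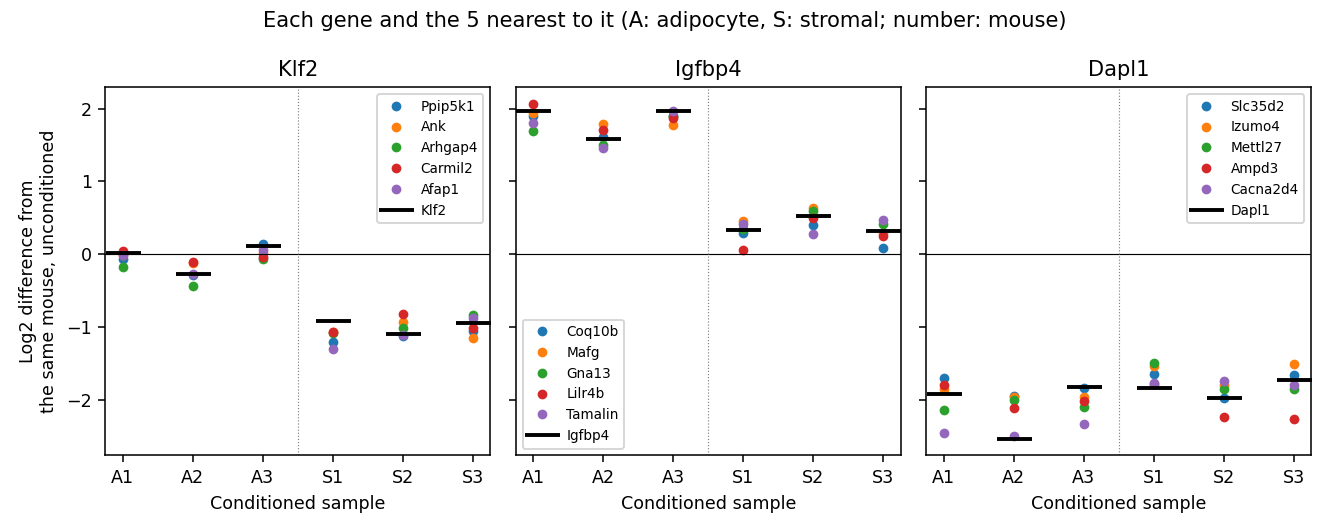
Log2 difference of each conditioned sample from the unconditioned sample of the same mouse (vertical axis) for Klf2, Igfbp4 and Dapl1 (black bars) and the 5 nearest genes of each (points); on the horizontal axis A is adipocyte and S is stromal medium, and the number is the mouse. Neighbours of Klf2 are near 0 in adipocyte and near -1 in stromal medium, and those of Dapl1 are low throughout.

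Markers of CD8 T cells, among which Dapl1 is most used as a naive marker, moved in adipocyte medium. Of 5 CD8 list genes 3 were tested, and the authors had listed only these 3 of the list as changed, all in adipocyte medium. Their summed level was 10620 to 11394 normalized counts in adipocyte medium and 33496 to 34988 in stromal medium, against 31066 to 36774 in unconditioned medium. The co-receptor gene Cd8a had 2292, 2017 and 2191 normalized counts in adipocyte medium and 12325, 11465 and 11478 in stromal medium, against 8703, 9579 and 10320 in unconditioned medium. Cd8a was thus low in adipocyte medium (log2 difference -2.14, limma adjusted p = 3.04e-09), as Dapl1 was, but was at 0.30 in stromal medium (limma adjusted p = 0.00775), where Dapl1 was also low. The other gene of the co-receptor, Cd8b1, was at -1.54 in adipocyte and -0.12 in stromal medium, and Nkg7, a gene of cytotoxic cells, at -0.89 and 0.09. After rescaling Cd8a was at -1.21, Cd8b1 at -0.61 and Nkg7, no longer called, at 0.03 in adipocyte medium. All 3 were then called higher in stromal medium, at 0.66, 0.24 and 0.44, where that scale called more genes higher than lower. The part of CD8 cells in the adipocyte level of Dapl1 was not tested. Of 5 CD4 list genes, the activation genes Cd40lg and Ctla4 were tested, with a sum of 23866 to 33362 in adipocyte medium and 10364 to 12485 in stromal medium, against 11170 to 12208 in unconditioned medium.

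Markers of several other cell types were detected. Over all genes tested, 63.4% were lower and 33.8% higher in adipocyte medium, and 36.6% lower and 21.1% higher in stromal medium. The tested genes had been selected by the authors as changed, so the markers tested do not stand for their whole lists. The pan T cell genes Cd3e and Cd3g, 2 of 14 listed T cell markers that were tested, were detected in all 9 samples. No other listed T cell marker was among the genes the authors had listed as changed. Cd3e and Cd3g were both called lower in both conditioned media (in stromal medium 1 of the 2 after rescaling). Their sum was 23214 to 25833 in adipocyte medium and 40000 to 42957 in stromal medium, against 58192 to 64505 in unconditioned medium. Of 16 B cell markers, cells that also express Klf2, 7 were tested, with a sum of 557 to 624 in adipocyte medium and 1742 to 3158 in stromal medium, against 2239 to 2968 in unconditioned medium. All 7 B cell markers fell in adipocyte medium (5 of 7 after rescaling) and 0 of the 7 passed the limma test in stromal medium. The authors had listed all 7 as changed in adipocyte medium and 0 in stromal medium, so these counts repeat that selection in part. Of 16 myeloid markers 8 were tested, with sums of 605 to 998, 3622 to 8819 and 3802 to 7507 in adipocyte, stromal and unconditioned medium. They did not move alike. In adipocyte medium 7 were called lower and 1 was not called, and rescaling gave 5 lower and 1 higher. In stromal medium 3 were lower, 1 was higher and 4 were not called, and rescaling gave 1 lower and 1 higher. Of 10 neutrophil markers 6 were tested, with sums of 285 to 983, 1818 to 3253 and 1773 to 2643. In adipocyte medium 5 of these were called lower and 1 higher, and in stromal medium 1 was lower and 5 were not called. Rescaling gave 3 lower and 1 higher of the neutrophil markers in adipocyte medium and called 0 in stromal medium. The authors had listed 7 of the 8 myeloid and all 6 neutrophil markers as changed in adipocyte medium, so those calls too repeat that selection in part. The natural killer list had 2 of 8 tested (1296 to 2750, 756 to 890 and 2004 to 2090). These 2 parted, with 1 called higher in adipocyte medium and the other called lower in stromal medium. The endothelial list had Pecam1 alone of 8, a gene that T cells express too (9333 to 10474, 12889 to 13580 and 17006 to 19250). Of 8 adipocyte markers, Lpl alone was tested, with 0, 0.9 and 12.7 normalized counts in adipocyte medium, 193, 156 and 186 in stromal medium and 28.6, 36.5 and 105 in unconditioned medium. None of 9 stromal cell markers was analysed here. The part of these cells in the levels of Klf2 and Igfbp4 was not tested.

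Early activation genes, the counterpart of the resting state, rose in adipocyte medium in 25 of 25 tested cases of 39 listed (median log2 difference 1.74), also after rescaling. Over all genes, 33.8% were higher there on the deposited scale. The authors had listed all 25 as changed in adipocyte medium, so that all were called repeats their selection. Only the direction was not set by it. In stromal medium 7 rose, 1 was lower and 17 were not called (median 0.15), beside 21.1% of all genes higher and 36.6% lower. Rescaling gave 15 higher and 0 lower of the 25 in stromal medium, beside 1129 higher and 561 lower of all 2870 genes tested on that scale. Klf2 was therefore at its unconditioned level on the deposited scale in the medium where activation genes were high. On the rescaled values Klf2 averaged 76167 ± 14241 in adipocyte medium and 26547 ± 1822 in stromal medium, against 41082 ± 2226 in unconditioned medium (SD, n = 3 each). Its place in stromal medium below unconditioned medium held on both scales, while its place in adipocyte medium did not.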

How the data were processed

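Total RNA was column-purified, amplified with a SMART-seq v4 kit and made into Nextera XT libraries for a NovaSeq, per the labels' protocols. FastQC, Trimmomatic, featureCounts and DESeq2 appear in the submitters' processing notes with no version, beside the builds GRCm39, GRCh38 and hg38. Not given in the sources used here are aligner, annotation and strand setting. The deposited sample table holds a normalized signal, read counts divided by 1 factor per sample, since 100% of values are whole multiples of a step within 0.001 reads. Recovered reads over the 2889 genes came to 6522742 to 13758643 per sample, and whole library depth is not known. The authors' deposited comparison tables hold, per the file headers, a mean signal, a log2 fold change with its error, a Wald score and p-values. The 2889 genes had been selected by the authors as changed.

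Here limma-trend (version 3.58.1, R 4.3.3) was run on log2(value + 1) for 2868 genes whose mean was 1 or more, with the 9 samples in 1 fit and medium as the factor. Adjusted p-values are Benjamini-Hochberg over these genes, 2-sided, at 0.05. This scale understates changes of low genes. The planned design kept edgeR for raw counts, so edgeR 4.0.16 on the recovered reads was an alternative and called 2784, 1685 and 2611 genes for adipocyte and stromal against unconditioned medium and adipocyte against stromal medium. The fit was tested on simulated data. Other alternatives were pseudocounts of 0.5 and 10, no filter, a mean of at least 10, rescaling by the median of ratios, the mouse as a block, and leaving out samples or mice. Samples with 1 number came from 1 mouse, per the labels, and their deviations from group means correlated at -0.12 to 0.26. Replicates differed beyond sampling noise (chi-square per degree of freedom 10.1 to 94.5). The members and all lists were chosen with earlier results of these data known. Named from a pathway list were up to 6 genes with the smallest adjusted p in either comparison with unconditioned medium, from marker lists up to 3 genes with the highest mean, and the 5 nearest genes of each member. Mef2a and Nfkb1 lie outside that rule and were named after their values were seen. Some genes of the lists are not reported here.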

Additional observations from a re-analysis of the deposited data

How the results depend on the processing

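The log2 differences of Klf2, Igfbp4 and Dapl1, the counts of called genes and the counts of the 17 other list genes were recomputed under 19 settings. Rescaling by the median of ratios over the listed genes moved 14 of these 18 results and was the only setting of the 19 to move one by more than its limit. Against unconditioned medium, the rescaled adipocyte values were 0.87 for Klf2, 2.77 for Igfbp4 and -1.17 for Dapl1, and the stromal values were -0.63, 0.74 and -1.49. For adipocyte against stromal medium they were 1.51, 2.03 and 0.32. The 17 list genes then had 5 higher and 4 lower in adipocyte medium, 5 higher in stromal medium, and 10 higher and 5 lower in adipocyte against stromal medium, in place of 4 and 9. Of the single genes, rescaling reversed Cd55 (0.38), S1pr4 (0.44) and S1pr1 (0.033) in adipocyte medium and Gramd3 (0.13), Klf10 (0.011) and Cd83 (0.0072) in stromal medium. The cause of these shifts is the rescaling itself, which moves every gene of a sample alike. It takes the median listed gene as unchanged, although 97.2% of genes tested were called between adipocyte and unconditioned medium on the deposited scale.

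Leaving out a sample or a mouse kept Klf2 between -1.06 and -0.93 in stromal medium and between -0.18 and 0.07 in adipocyte medium, Igfbp4 between 1.71 and 1.98 in adipocyte medium, and Dapl1 between -2.26 and -1.88 in adipocyte and between -1.99 and -1.72 in stromal medium. With the replicate block, 2788 genes were called in adipocyte and 1665 in stromal against unconditioned medium, beside 2787 and 1655 without it, and of the calls on single genes that were recomputed it ended that of Gramd3 in stromal medium (-0.23) and changed no other call. The Gramd3 call also ended with a pseudocount of 10 and with no filter (-0.23 in both), without adipocyte replicate 1, without any single stromal or unconditioned replicate, and without mouse 1 or 3 (-0.25 to -0.21). The edgeR test on recovered reads called 2784 and 1685. Each medium has 3 samples, and whole library depth is not known.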
